A study of Mus musculus with 35 samples.

Results

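The first steps of Toll-like receptor signalling were followed through 10 genes in CD45+ cells of the mouse brain from the first postnatal week to adulthood. They were Cd14 and Ly96, which help a receptor bind its ligand, the adaptors Myd88, Tirap and Ticam1, the kinases Irak1, Irak2, Irak3 and Irak4, and the ubiquitin ligase Traf6. They were taken by name as the pathway that miR-146a is known to curb, and are 10 of the 55401 genes in the table. All 10 were among the 17612 genes that passed the filter on low counts, which asked for a level of at least 0.5 CPM (counts scaled to library size) in at least 5 mice. The cells came from whole brains of untreated wild-type C57BL/6 mice at postnatal day 6 (P6), P15 and 8 weeks, 1 mRNA library per mouse. The groups held 4 females and 6 males at P6 and 6 of each sex at both later ages, which makes 34 mice. P6 female 6 was kept out of the main comparisons, because the study set 1 mouse aside as an outlier and this is the mouse absent from the source data of its plots. Cells were caught on a dish coated with antibody against CD45, a surface protein of all white blood cells, so the catch is not limited to microglia. In such bulk samples a change in the number of cells of a type and a change in RNA per cell cannot be told apart.

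Toll-like receptors and the receptors of the interleukin-1 family share an inner TIR domain that recruits adaptors with the same domain. MyD88 then gathers IRAK4 with IRAK1 or IRAK2 into a complex that activates TRAF6, while TRIF, the product of Ticam1, serves a separate arm that leads to interferon genes. Microglia carry these receptors, and miR-146a, which is itself induced by the pathway, is known as a brake on it through the messages of IRAK1 and TRAF6.

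The mature sequences of miR-146a and its close relative miR-146b are shown because their shared seed (bases 2 to 8, in capitals) defines the sites searched for in the 10 messages. They are RefSeq sequences on GRCm38.p6, at chr11:43374435-43374456 on the minus strand and chr19:46342790-46342811 on the plus strand, written 5′ to 3′.
mmu-miR-146a-5p: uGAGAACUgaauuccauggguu
mmu-miR-146b-5p: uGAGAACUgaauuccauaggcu

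The 7 letters AGTTCTC, which pair with the seed, were searched on the sense strand of 1 GENCODE M21 3′ UTR per gene (GRCm38). They occurred 4 times in Traf6, 2 times each in Irak1, Irak2 and Tirap, and not in the window searched for the other 6 genes. Of 21660 protein-coding genes with a complete 3′ UTR model, 10.8% held a match, and the share rose with length: 31.8% of genes whose 3′ UTR was within 1.25-fold of the length of that of Traf6, 24.8% for Tirap, 11.8% for Irak1 and 9.11% for Irak2. The sites below show how far the matches extend. Capitals mark the match, and an 8-mer has a further A after it, opposite base 1 of the miRNA.
Irak1, chrX:74015393-74015414, minus strand: gactcagaggtcaaAGTTCTCA
Irak1, chrX:74015377-74015398, minus strand: ttctcatgcttggaAGTTCTCA
Irak2, chr6:113694119-113694140, plus strand: cccccaaacctcttAGTTCTCc
Irak2, chr6:113694252-113694273, plus strand: ccggtgtctccgcaAGTTCTCA
Traf6, chr2:101697945-101697966, plus strand: ccgctctggtgttgAGTTCTCA
Traf6, chr2:101701345-101701366, plus strand: gactttgctactgcAGTTCTCA
Tirap, chr9:35186082-35186103, minus strand: ttgtgtcggtcagcAGTTCTCc

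All 4 matches in Traf6 and both in Irak1 were 8-mers, 1 of the 2 in Irak2 was, and neither in Tirap was, while 3.94% of all genes held an 8-mer. A match is a description of these letters and not evidence of binding. The mature miRNA was not measured in these mRNA libraries. The row of its precursor gene, Mir146, was at 0 in 16 of 34 mice and reached at most 6 counts, and that of Mir146b was at 0 in 32.

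Libraries held between 23316107 and 38965078 counts on genes. Microglial markers (Tmem119, P2ry12, Sall1, Cx3cr1 and Aif1) were present in every group, with summed levels of 3344 to 6293 CPM at P6, 7261 to 14852 at P15 and 10261 to 14239 at 8 weeks. All 5 rose from P6 to 8 weeks. The 9 markers of neural progenitors and immature neurons moved the other way and all 9 fell, from 661 to 2037 CPM at P6 to 89.0 to 206 CPM at 8 weeks. Markers of neutrophils, which also carry several of the 10 genes, summed to 152 to 260 CPM at P6 and 731 to 1174 CPM at 8 weeks. The sum was not shared evenly by the list. From P15 to 8 weeks the median sum went from 515 to 953 CPM, while the mean log2 CPM was 3.12 and 3.13. Of 7 tested, 4 rose and 3 fell over that step, and 4 rose and 0 fell from P6 to 8 weeks. Ly6g and Mpo at P6 and 8 weeks and Camp in adults had medians under 0.5 CPM. All 6 lymphocyte markers rose over the same ages, from a sum of 2.58 to 14.8 CPM to one of 12.8 to 48.9 CPM, with Cd3e and Nkg7 at medians under 0.5 CPM at P6. Markers of monocytes and macrophages summed to medians of 976, 860 and 483 CPM in the order of the ages, and 2 of 9 rose and 6 fell from P15 to 8 weeks. Not all neural RNA fell: the median sums were 848, 2992 and 2544 CPM for astrocyte markers and 440, 1358 and 501 CPM for those of the oligodendrocyte lineage. Of 15 early genes that dissociation of brain cells induces, 4 rose and 6 fell from P6 to P15, 11 rose and 0 fell from P15 to 8 weeks, and 8 rose and 1 fell from P6 to 8 weeks. These marker changes ran alongside the age comparisons, and age and marker level cannot be told apart.

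Within P6, males 1, 5 and 6 lay apart from the other 7 mice. Their mean microglial marker level was 9.29 to 9.53 on the log2 CPM scale against 8.68 to 9.07 in the others, and their neuronal marker level was 4.77 to 5.38 against 5.87 to 6.31. Early genes induced when brain cells are dissociated stood at 9.18 to 9.39 in them against 8.67 to 9.0. The same 3 mice had the 3 highest P6 levels of 7 of the 10 genes, all but Irak3, Traf6 and Tirap. These mice were singled out after their values were seen, so no test was made of them. Without them, each of the 30 changes between ages kept its side of the 0.05 threshold and 28 kept their direction, the exceptions being those of Ticam1 from P6 to P15 (log2 fold change 0.17 in place of -0.07) and from P6 to 8 weeks (0.16 in place of -0.08).

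P15 male 1 also lay apart. It had the lowest P15 sums of microglial markers (7261 CPM, against 7998 to 14852 in the other P15 mice), of monocyte and macrophage markers (289, against 646 to 1031) and of neutrophil markers (420, against 430 to 821). Its sums were the highest for markers of the oligodendrocyte lineage (3262, against 809 to 2368), neurons (693, against 89.5 to 615) and neural progenitors and immature neurons (844.7, against 124.2 to 667.5). It was the lowest P15 mouse for 5 of the 10 genes (Irak1, Irak3, Irak4, Traf6 and Ly96). Without it, all 30 changes between ages kept their side of the threshold and 28 kept their direction, the exceptions being Irak1 and Tirap from P15 to 8 weeks, neither past the test.

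Across the 3 ages the pathway did not move as a block. From P6 to 8 weeks 7 genes rose (Cd14, Ly96, Myd88, Tirap, Irak2, Irak3 and Irak4), Traf6 fell, and Irak1 and Ticam1 did not pass the test. Among all genes tested, 37.8% rose and 36.6% fell. The median log2 fold change of the 10 genes was 0.72, against 0.04 over all genes tested, and that of the 5 microglial markers was 1.33. Changes were tested with edgeR's quasi-likelihood test, adjusted by Benjamini-Hochberg over all 17612 genes (FDR), and a gene is said to rise or fall when its FDR was below 0.05.

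From P6 to P15, 6 genes rose and 2 fell, where 30.4% and 31.4% of all genes did so. From P15 to 8 weeks 5 rose and none fell, where 24.0% and 23.9% did. For this count of falls, DESeq2 and limma-voom also gave 0, and none of the 3 tools gave one at an unadjusted p under 0.05. The 0 did not hold in edgeR once the fit also took in neuronal and progenitor marker RNA of each mouse. That fit gave 5 falls from P15 to 8 weeks (Irak1, Tirap, Myd88, Irak4 and Ticam1) and 1 rise. Taking in microglial marker RNA in its place gave 0 falls and 4 rises. The 3 comparisons share mice, so they are not independent of each other. Changes beyond 2-fold (glmTreat, FDR below 0.05) were few: Irak2 from P6 to 8 weeks, where 11.5% of all genes rose and 12.4% fell this far, and Irak3 from P15 to 8 weeks, where 1.20% rose and 3.07% fell. No gene of the 10 passed that threshold from P6 to P15, where 4.87% rose and 4.85% fell; edgeR, DESeq2 and limma-voom each gave 0, also at an unadjusted p under 0.05.

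**Figure D1:**
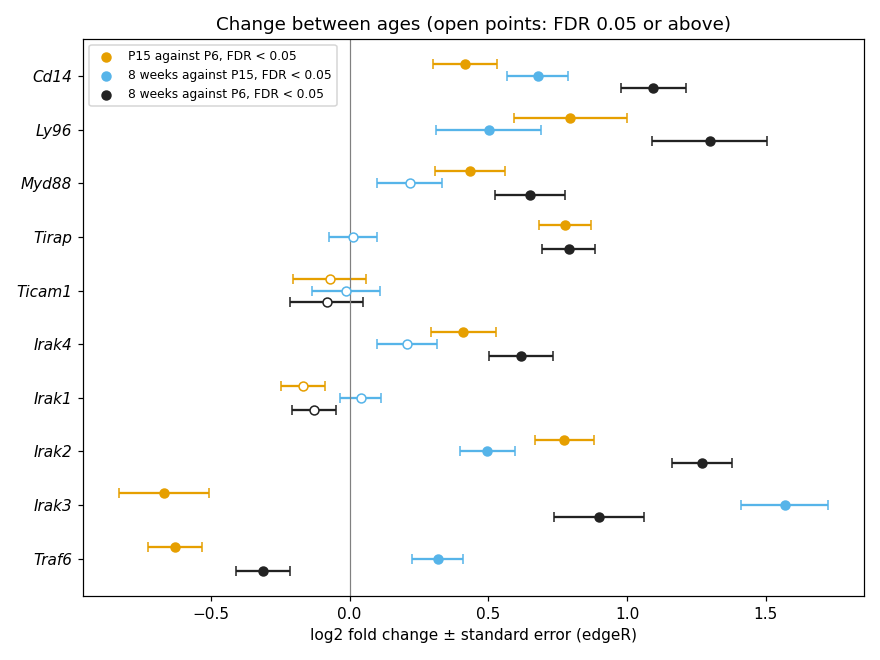
The log2 fold change of each gene (x axis, with its standard error) is plotted for the 3 comparisons of ages, with filled points where the FDR was below 0.05. Irak3, Ly96 and Irak2 reach furthest to the right (1.57, 1.30 and 1.27), Traf6 and Irak3 lie to the left of 0 from P6 to P15, and all 3 points of Ticam1 and of Irak1 are open.

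Cd14 (ENSMUSG00000051439) encodes a surface protein that hands bacterial lipopolysaccharide to the TLR4 receptor complex. Its lowest, median and highest levels were 128, 157 and 211 CPM at P6, 126, 200 and 295 CPM at P15, and 265, 322 and 468 CPM at 8 weeks. Every adult mouse lay above every P6 mouse, while P15 overlapped both. Cd14 rose 2.14-fold from P6 to 8 weeks (log2 fold change 1.09, SE 0.12, edgeR FDR = 8.68e-10), but this was not beyond the 2-fold threshold (glmTreat FDR = 0.262). The rise was 0.42 on the log2 scale up to P15 (SE 0.12, edgeR FDR = 0.00247) and 0.68 after it (SE 0.11, edgeR FDR = 8.18e-06). The rise from P6 to 8 weeks did not pass with a covariate, where it was 0.21 with the level of neural markers (edgeR FDR = 0.404) and 0.17 with that of microglial markers (edgeR FDR = 0.618). The earlier step was 0.035 (edgeR FDR = 0.815) and -0.39 (edgeR FDR = 0.165) in these fits, and the later one 0.17 (edgeR FDR = 0.313) and 0.56 (edgeR FDR = 1.45e-05).

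Ly96 (ENSMUSG00000025779, chr1:16688051-16709611, plus strand) encodes MD-2, the part of the TLR4 complex that holds lipopolysaccharide. Its levels were low, with 2.61, 4.01 and 5.43 CPM at P6, 1.62, 6.61 and 8.84 CPM at P15 and 5.03, 9.54 and 13.2 CPM at 8 weeks, from 48 to 428 counts per mouse. All but 1 adult mouse (male 4, which also had the highest Cd14) lay above every P6 mouse. P15 male 1, the library that lay apart, was far below the other P15 mice. Ly96 rose 2.46-fold from P6 to 8 weeks (log2 fold change 1.30, SE 0.21, edgeR FDR = 1.49e-06). The step from P15 to 8 weeks was 0.50 (SE 0.19, edgeR FDR = 0.0286). It missed 0.05 when any 1 of 5 mice was left out (P15 female 1 or 8-week female 2, female 3, male 2 or male 3), with FDR between 0.0526 and 0.0717. Neither marker covariate left a call for Ly96 in any of the 3 comparisons, and from P6 to 8 weeks its change was 0.40 with neural markers (edgeR FDR = 0.48) and -0.64 with microglial markers (edgeR FDR = 0.273).

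Myd88 (ENSMUSG00000032508, chr9:119335934-119341411, minus strand) encodes the adaptor used by most Toll-like receptors. Its lowest, median and highest levels were 37.6, 49.9 and 72.3 CPM at P6, 43.8, 67.5 and 98.2 CPM at P15, and 66.8, 77.5 and 121 CPM at 8 weeks. The ages overlapped, although 7 of 12 adult mice lay above all P6 mice. Myd88 rose 1.57-fold from P6 to 8 weeks (log2 fold change 0.65, SE 0.13, edgeR FDR = 2.75e-05). The step up to P15 passed the test (0.43, SE 0.13, edgeR FDR = 0.00339) and the later one did not (0.22, SE 0.12, edgeR FDR = 0.124). With the levels of marker genes as covariates, the change from P6 to 8 weeks turned to -0.41 with neural markers (edgeR FDR = 0.0905) and -0.58 with microglial markers (edgeR FDR = 0.0415), and the step up to P15 to -0.014 (edgeR FDR = 0.928) and -0.64 (edgeR FDR = 0.0116). The later step turned to a fall past the test with neural markers (-0.39, edgeR FDR = 0.0182) and was 0.058 with microglial markers (edgeR FDR = 0.607).

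Tirap (ENSMUSG00000032041, chr9:35184551-35200291, minus strand) encodes the adaptor that brings MyD88 to the membrane at TLR2 and TLR4. It had 11.4, 13.6 and 16.8 CPM at P6, 16.3, 23.3 and 30.1 CPM at P15 and 18.9, 23.2 and 27.8 CPM at 8 weeks. All adult mice and 11 of 12 P15 mice lay above every P6 mouse. Tirap rose 1.71-fold from P6 to P15 (log2 fold change 0.78, SE 0.09, edgeR FDR = 2.03e-08). From P15 to 8 weeks its log2 fold change was 0.01, with a 95% interval of -0.17 to 0.19. This step passed the test as a fall with the neural covariate (-0.42) and did not pass with the microglial one. The rise up to P15 was 0.45 with the neural covariate (edgeR FDR = 0.000112) and turned to -0.10 with the microglial one (edgeR FDR = 0.628). From P6 to 8 weeks the covariates gave 0.031 (edgeR FDR = 0.89) and -0.20 (edgeR FDR = 0.355), in place of 0.79.

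Ticam1 (ENSMUSG00000047123, chr17:56269319-56276786, minus strand) encodes TRIF, the adaptor of TLR3 and of the inner arm of TLR4. It had 37.6, 50.7 and 85.0 CPM at P6, 35.8, 52.5 and 67.3 CPM at P15 and 42.6, 48.9 and 75.9 CPM at 8 weeks, so the ages lay on top of each other. The 3 highest values at P6, from 77.9 to 85.0 CPM, belonged to males 1, 5 and 6. The log2 fold change from P6 to 8 weeks was -0.08, with a 95% interval of -0.35 to 0.18 (edgeR FDR = 0.571). It passed the test as a fall with either covariate, at -1.04 with neural markers (edgeR FDR = 0.000368) and -1.08 with microglial markers (edgeR FDR = 0.0031).

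**Figure D2:**
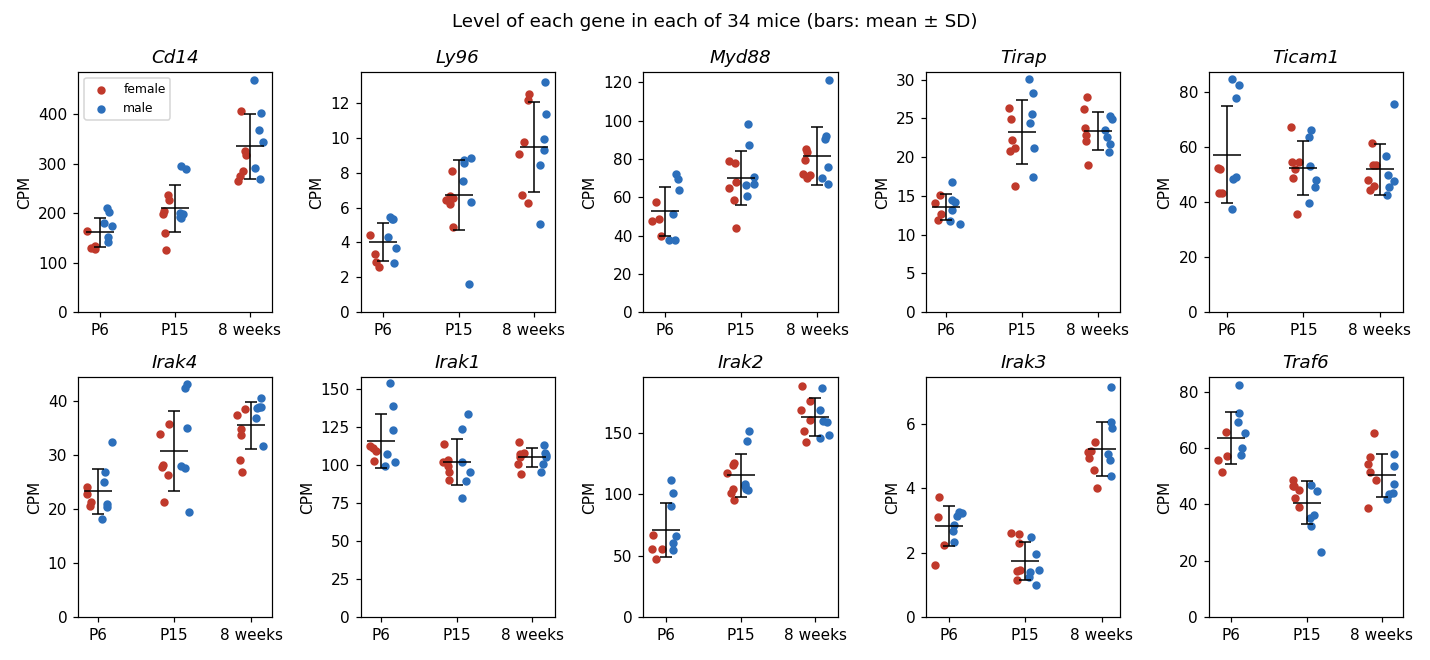
Each panel plots the CPM of 1 gene (y axis, from 0) in each of 34 mice by age (x axis), females in red and males in blue, with bars for the mean ± SD. The adult points of Cd14, Irak2, Irak3 and Tirap lie above all P6 points, the P15 points of Traf6 lie below all P6 points, and Ticam1 and Irak1 overlap at all ages.

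Irak4 (ENSMUSG00000059883, chr15:94543643-94581815, plus strand) encodes the kinase that acts first in the MyD88 complex. Its levels were 18.2, 22.1 and 32.4 CPM at P6, 19.4, 28.1 and 43.1 CPM at P15 and 26.9, 37.1 and 40.4 CPM at 8 weeks. P15 spread widely and covered the whole adult range. Irak4 rose 1.53-fold from P6 to 8 weeks (log2 fold change 0.62, SE 0.12, edgeR FDR = 1.93e-05). This direction turned with both marker covariates, to -0.51 with neural markers (edgeR FDR = 0.00739) and -0.86 with microglial markers (edgeR FDR = 1.63e-05). The step up to P15 was 0.41 (SE 0.12, edgeR FDR = 0.00286), and that from P15 to 8 weeks was 0.21 (SE 0.11, edgeR FDR = 0.112). In the same order of covariates the earlier step turned to -0.083 (edgeR FDR = 0.45) and -0.90 (edgeR FDR = 1.71e-06). The later step turned to a fall past the test with neural markers (-0.42, edgeR FDR = 0.00121) and was 0.041 with microglial markers (edgeR FDR = 0.543). With no covariate, it passed 0.05 as a rise without P15 male 5 (FDR = 0.0323) or male 6 (FDR = 0.0381).

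Irak1 (ENSMUSG00000031392, chrX:74013914-74023918, minus strand) encodes a kinase activated by IRAK4 and is a known target of miR-146a. Its exons share 141 bases with the small RNA genes Mir5132 and Mir718 on the same strand. Levels were 99.5, 111 and 154 CPM at P6, 78.7, 100.6 and 134 CPM at P15 and 94.4, 106 and 116 CPM at 8 weeks, and 10 of 12 adult mice lay within the P6 range. The log2 fold change from P6 to 8 weeks was -0.13, with a 95% interval of -0.29 to 0.04 (edgeR FDR = 0.149). From P6 to P15 it was -0.17 (SE 0.08, edgeR FDR = 0.0687). Scaled by total counts these values were -0.26 (FDR = 9.8e-05) and -0.30 (FDR = 3.11e-05), a scaling that shifted the median of all genes by -0.14 and -0.13. Leaving out single mice also moved them past 0.05, P6 male 3 or 4 for the first and any 1 of 7 mice for the second. With at least 10 counts asked of every mouse both passed (-0.16, edgeR FDR = 0.047, and -0.19, edgeR FDR = 0.0226), and without the sex term the second did (-0.18, edgeR FDR = 0.0398). Both moved most with the marker covariates, the first to -0.89 (edgeR FDR = 2.84e-08) with neural and -1.04 (edgeR FDR = 6.01e-08) with microglial markers, and the second to -0.49 (edgeR FDR = 3.5e-08) and -0.97 (edgeR FDR = 3.6e-08).

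Irak2 (ENSMUSG00000060477, chr6:113638467-113695026, plus strand) encodes a relative of IRAK1 that sustains signalling at later times. Its levels climbed from 47.6, 63.0 and 112 CPM at P6 to 95.1, 108 and 151 CPM at P15 and 143, 160 and 188 CPM at 8 weeks. All adult mice lay above all P6 mice, and 8 of 12 lay above all P15 mice. Irak2 rose 2.41-fold from P6 to 8 weeks (log2 fold change 1.27, SE 0.11, edgeR FDR = 4.2e-12), beyond the 2-fold threshold (glmTreat FDR = 0.0082). That last call was lost with total-count scaling, with DESeq2, without the sex term and with either marker covariate. The rise itself was 0.54 with neural markers (edgeR FDR = 0.0186) and 0.47, not past the test, with microglial markers (edgeR FDR = 0.101). It rose by 0.77 up to P15 (SE 0.11, edgeR FDR = 1.97e-07) and by 0.50 after it (SE 0.10, edgeR FDR = 0.000133). The first of these steps did not pass with the microglial covariate (0.077, edgeR FDR = 0.787), nor the second with the neural one (0.066, edgeR FDR = 0.71).

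Irak3 (ENSMUSG00000020227, chr10:120141648-120202130, minus strand) encodes IRAK-M, a member without kinase activity that damps the pathway. It was the least abundant, with 1.62, 2.98 and 3.73 CPM at P6, 1.01, 1.46 and 2.61 CPM at P15 and 4.02, 5.10 and 7.14 CPM at 8 weeks, from 30 to 211 counts per mouse. Adult mice lay above all younger mice, and 7 of 12 P15 mice lay below all P6 mice. Irak3 first fell by 0.67 on the log2 scale (SE 0.16, edgeR FDR = 0.00067). From P15 to 8 weeks it then rose 2.96-fold (log2 fold change 1.57, SE 0.16, edgeR FDR = 1.47e-09), beyond the 2-fold threshold (glmTreat FDR = 0.00296). Both steps passed the test with either covariate, the later one beyond 2-fold with microglial but not with neural markers, while the rise from P6 to 8 weeks (0.90, edgeR FDR = 1.12e-05) became 0.48 with neural markers (edgeR FDR = 0.298) and 0.047 with microglial markers (edgeR FDR = 0.942). Irak3 was 1 gene of the 10 without overlap from P15 to 8 weeks, where 1.65% of all genes rose and 1.72% fell without overlap.

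Traf6 (ENSMUSG00000027164, chr2:101678429-101701669, plus strand) encodes the ubiquitin ligase on which the IRAK complex acts, and its message carries 4 8-mers, 2 of which are shown above. Its levels were 51.6, 62.5 and 82.2 CPM at P6, 23.1, 43.5 and 48.7 CPM at P15 and 38.9, 50.1 and 65.2 CPM at 8 weeks. Every P15 mouse lay below every P6 mouse, and 7 of 12 adult mice did. Traf6 fell by 0.63 on the log2 scale from P6 to P15 (SE 0.10, edgeR FDR = 1.21e-06). It rose by 0.32 from P15 to 8 weeks (SE 0.09, edgeR FDR = 0.00498) and remained 0.31 lower than at P6 (log2 fold change -0.31, SE 0.10, edgeR FDR = 0.00418). The later step turned to -0.074 with the neural covariate (edgeR FDR = 0.652), while the change from P6 to 8 weeks passed with both covariates (edgeR FDR = 2.9e-05 with neural markers) and was -1.10 with microglial markers (edgeR FDR = 0.000163). From P6 to P15 it was 1 gene of the 10 without overlap, where 5.25% of all genes rose and 7.72% fell without overlap. From P6 to 8 weeks 4 of the 10 rose without overlap (Cd14, Irak2, Irak3 and Tirap) and none fell, where 14.8% of all genes did so in each direction.

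Without a covariate, the genes with a seed match did not share a direction. From P6 to 8 weeks Irak2 and Tirap rose, Traf6 fell, and Irak1 did not pass the test. Traf6 and Irak1, whose matches were all 8-mers, had log2 fold changes of -0.31 and -0.13. With either marker covariate Tirap did not pass, Traf6 fell, and Irak1 fell (-0.89 with neural and -1.04 with microglial markers). Irak2 passed as a rise with the neural one only. The part of miR-146a in these changes was not tested. The log2 fold changes of the 6 genes without a match in the window ran from -0.08 for Ticam1 to 1.30 for Ly96.

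The balance of the 4 IRAK messages within a mouse does not depend on the scaling between mice, and was described as each gene's share of the summed CPM per kilobase of exon. These shares were chosen after the values were seen and carry no test. From P6 over P15 to 8 weeks the median share of Irak1 was 53.8%, 40.0% and 33.0%, and that of Irak2 was 34.7%, 48.0% and 53.9%. For Irak1 the ranges were 48.4% to 59.8%, 37.5% to 44.4% and 31.8% to 35.2%, so no 2 ages overlapped. For Irak2 they were 27.0% to 41.4%, 43.5% to 53.2% and 51.2% to 59.0%, so P15 and 8 weeks overlapped. The shares also differed within P6 between mice that lay apart in marker level. Males 1, 5 and 6 had Irak2 shares of 41.4%, 36.3% and 39.1%, against 27.0% to 34.9% in the other P6 mice. Their Irak1 shares were 48.4%, 52.0% and 50.0%, against 53.3% to 59.8%. Whether the shift with age went with marker level was not tested. Irak4 stayed between 7.40% and 13.3% in every mouse, and Irak3 between 0.554% and 2.96%. Per kilobase, Irak2 stood at 0.452 to 0.856 times Irak1 at P6, 0.981 to 1.42 times at P15 and 1.48 to 1.86 times at 8 weeks. Irak2 lay below Irak1 in all P6 mice and above it in all adult mice.

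**Figure D3:**
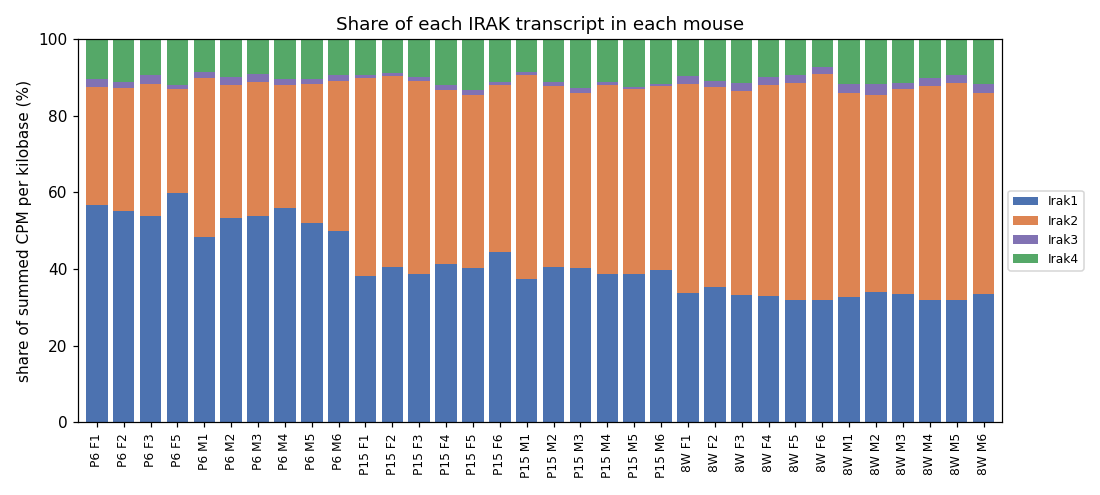
Each bar is 1 of 34 mice (F, female; M, male), divided into the percent share of each IRAK gene in the summed CPM per kilobase. The Irak1 part shrinks from a median of 53.8% at P6 to 33.0% at 8 weeks while the Irak2 part grows from 34.7% to 53.9%.

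Among the adaptors the median share of Ticam1 was 44.7%, 35.4% and 32.5% in the order of the ages, and that of Myd88 was 48.3%, 54.9% and 58.9%. The ratio of Myd88 to Ticam1 per kilobase was 0.898 to 1.30 at P6, 1.31 to 1.96 at P15 and 1.37 to 2.24 at 8 weeks. The P6 range lay below both others.

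In CPM per kilobase Cd14 was the highest of the 10 at each age and apart from the next gene, with medians of 90.8, 115 and 186. Irak3 was the lowest at each age and apart from Tirap above it, with medians of 0.812, 0.397 and 1.39. Irak2 held the fifth place at P6 (14.3), the third at P15 (24.4) and the second at 8 weeks (36.2). Traf6 went from the sixth place (7.93) to the eighth (5.52 and 6.36). Most neighbours in between overlapped, among them Myd88 and Ticam1 at P6, Myd88 and Irak2 at P15 and at 8 weeks, and Irak4 and Traf6 at P15 and at 8 weeks.

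No gene of the 10 differed between males and females at any age by edgeR, where 0.0511% of all genes differed at P6, 0.0681% at P15 and 0.114% at 8 weeks. At an unadjusted p under 0.05 there were 2 at P6 (Irak2 and Ticam1), 1 at P15 (Traf6) and 0 at 8 weeks. DESeq2 and limma-voom also gave 0 at an FDR below 0.05 at each age, and at an unadjusted p under 0.05 each gave 2, 1 and 0. The largest difference was that of Irak2 at P6, 0.51 higher in males on the log2 scale with a 95% interval of 0.19 to 0.83 (edgeR FDR = 0.696), and the 3 P6 mice that lay apart are all males. The interaction of sex with age passed the edgeR threshold for 0 of the 10, where 0.00% of all genes passed, and 2 (Traf6 and Irak2) had an unadjusted p under 0.05.

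The rest of the pathway was read from 58 further genes, all of which passed the filter. The receptors Tlr11 and Il18r1 did so through the adult mice alone, where the filter itself favours a rise, and are left out of the counts. Of the other 56 genes, 32 rose from P6 to 8 weeks, 12 fell and 12 did not pass the test, where 37.8% of all genes rose and 36.6% fell, and their median log2 fold change was 0.39. Of 14 receptors, 11 rose and none fell (median 1.14), and of 7 co-receptors and chaperones 5 rose and 2 fell. Of 14 kinases and ubiquitin proteins that act with IRAK and TRAF6, 6 rose and 5 fell (median 0.09), and of 10 negative regulators 4 rose and 4 fell (median -0.11). Of 8 genes of the TRIF arm, 4 rose and none fell, and of 3 other TIR adaptors 2 rose and 1 fell.

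Among these 56 the largest rise was that of a receptor. Tlr3, a sensor of double-stranded RNA, rose by 3.32 on the log2 scale (SE 0.16, edgeR FDR = 1.82e-18) from a median of 11.0 CPM to 108 CPM. Both receptors left out were low at all ages. Tlr11 had medians of 0.0251, 0.146 and 0.686 CPM and reached 0.5 CPM in 0 P6, 0 P15 and 8 adult mice. Il18r1, a chain of the interleukin-18 receptor, had medians of 0.174, 0.217 and 1.02 CPM and reached it in 0, 1 and 11. Ticam1, the adaptor that TLR3 uses, had a 95% interval of -0.35 to 0.18 over the same ages.

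The 3 largest falls were spread over the lists. Lbp, which encodes the lipopolysaccharide-binding protein, fell by 2.63 (SE 0.28, edgeR FDR = 4.45e-10) from a median of 2.28 CPM to 0.354 CPM. Sarm1, a TIR adaptor abundant in neurons, fell by 1.93 (SE 0.24, edgeR FDR = 1.26e-08) from 25.6 CPM to 6.00 CPM. Sigirr, an inhibitory receptor of the interleukin-1 family, fell by 1.31 (SE 0.14, edgeR FDR = 6.69e-10) from 5.51 CPM to 2.15 CPM.

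**Figure D4:**
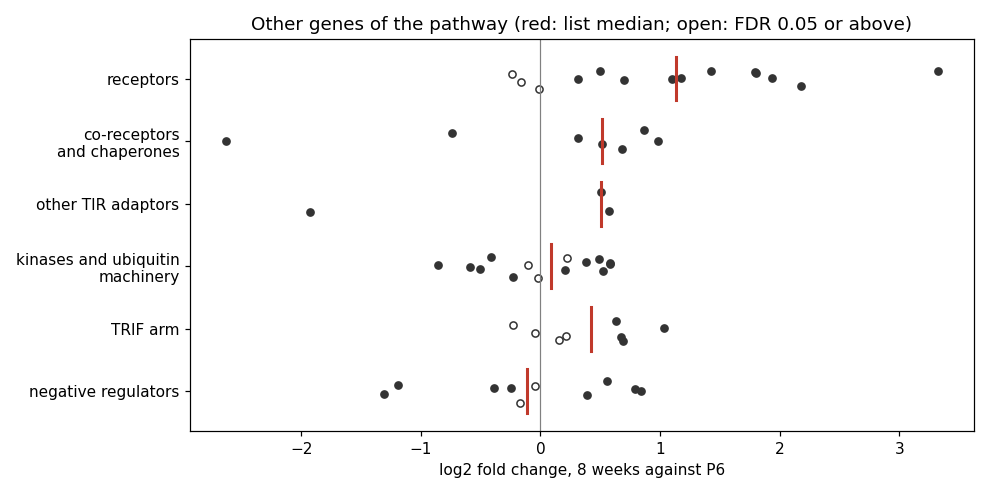
The log2 fold change from P6 to 8 weeks (x axis) is plotted for 56 other pathway genes by list (Tlr11 and Il18r1 left out), with filled points where the FDR was below 0.05 and a red line at the list median. The receptors reach furthest to the right with a median of 1.14, and the kinases and ubiquitin machinery and the negative regulators lie on both sides of 0.

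How the 10 genes stood relative to marker RNA was followed with 2 covariates, the mean log2 CPM of neuronal and progenitor markers and, added after the data were seen, that of microglial markers. With the neural covariate, the log2 fold change of Irak2 from P6 to 8 weeks was 0.54 (edgeR FDR = 0.0186). In that fit 1 gene of the 10 rose and 4 fell, where 25.3% of all genes rose and 23.5% fell. With the microglial covariate the change of Irak2 was 0.47 (edgeR FDR = 0.101). In that fit 0 of the 10 rose and 5 fell, where 20.3% of all genes rose and 21.8% fell. From P6 to P15 the neural covariate left 2 rises (27.2% of all genes) and 4 falls (25.9%), and the microglial one 0 rises (21.1%) and 6 falls (21.9%). From P15 to 8 weeks the neural covariate left 1 rise (19.9%) and 5 falls (19.8%), and the microglial one 4 rises (23.4%) and 0 falls (22.6%). Of these counts of 0, 1 held a gene at an unadjusted p under 0.05 in edgeR, the only tool run with covariates (Irak2, higher from P6 to 8 weeks). Under both, Irak1, Irak4, Traf6 and Ticam1 were lower at 8 weeks, from -0.51 for Irak4 with the neural covariate to -1.10 for Traf6 with the microglial one. Neither covariate overlapped between P6 and 8 weeks. The microglial one did not overlap between P6 and P15 either (at most 9.53 and at least 9.65 on the log2 CPM scale). In these comparisons the slope of the covariate came from mice within the ages and was extended across the gap. Age and marker level cannot be told apart. The rises of Cd14, Ly96, Myd88, Tirap, Irak2, Irak3 and Irak4 are rises relative to all RNA counted.

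**Figure D5:**
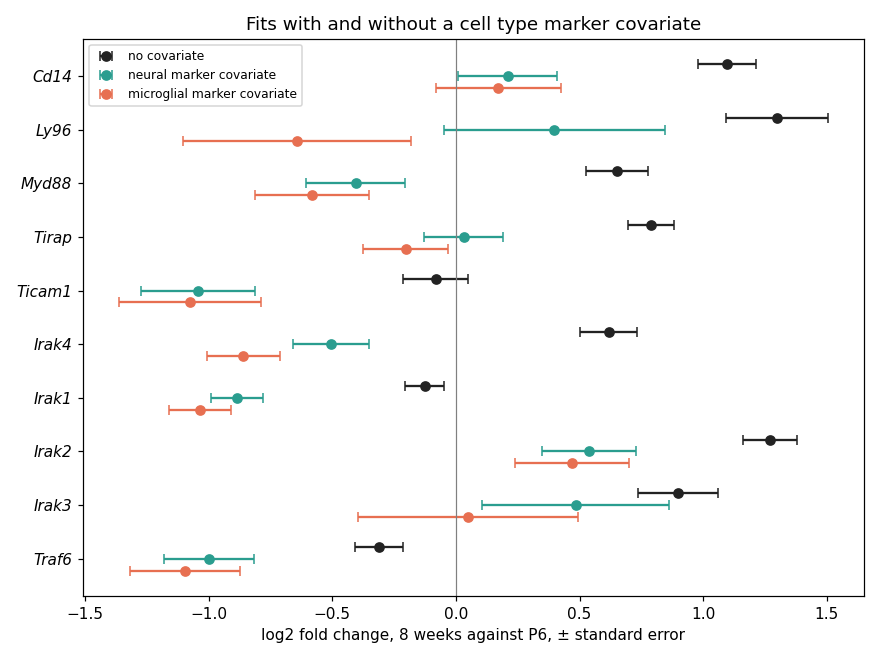
The log2 fold change of each gene from P6 to 8 weeks (x axis, with its standard error) is plotted without a covariate (black), with the neural marker covariate (green) and with the microglial marker covariate (orange). Every coloured point lies to the left of its black point, and those of Irak2 lie at 0.54 and 0.47 against 1.27.

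Genes whose pattern lay nearest to that of each changed gene were found by the root mean square distance of centred log2 CPM over the 34 mice. For Myd88 they were Ntpcr and Gpsm3 (0.09 each), for Irak4 Tor1aip1 and Plekha2 (0.13 each) and for Tirap Mapk14 and Map3k3 (0.13 each). The nearest to Traf6 were Cacul1 (0.12) and Ube2d3 (0.13). Irak2 lay nearest to Pdgfb and Irf5 (0.17 each), Cd14 to Fcgr3 (0.17) and H2-D1 (0.19), and Ly96 to Man1a and Cd84 (0.23 each). Irak3 had the most distant neighbours, Rcbtb2 (0.39) and Arl11 (0.40), whose log2 fold changes were -0.46 and -0.32 up to P15 and 0.99 and 1.02 after it.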

How the data were processed

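Raw counts per gene, 1 column per mouse, were deposited by the authors, who aligned paired-end reads of directional libraries to GRCm38/mm10 with STAR and counted fragments by strand with featureCounts of Subread. The annotation release is not given in the sources used here. Genes were named from GENCODE M21, which held 55141 of the 55401 identifiers. The fit to these counts used edgeR 4.0.16 under R 4.3.3 (TMM scaling, robust quasi-likelihood fit, 1 mean per age and sex group, sexes averaged in age contrasts), with limma 3.58.1 and DESeq2 1.42.0 as alternatives. Scripts were tested on simulated data. The log2 CPM values use a prior count of 2. All tests were two-sided. Mice of a group are separate animals, and no 2 libraries of a group were copies (lowest chi-square per gene 12.7).

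The 10 genes and all lists were chosen with earlier results of these data known. Named genes were the 10, the 3 largest rises and falls among the other pathway genes (2 of the rises, which passed the filter through 1 age alone, by level only), the 2 nearest genes for each changed gene, markers near 0 and the miR-146a precursor. Alternatives were all 35 mice, other scalings, filters and tools, fewer ages, no sex term, a replicate block, marker covariates and each mouse left out. The microglial covariate, the fit without P6 males 1, 5 and 6 and the shares and ratios within a mouse were added after the data were seen. A further microglial marker is not reported here and entered no marker level or covariate. The miRNA libraries were not analysed here.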

Additional observations from a re-analysis of the deposited data

Results flagged for a closer look

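Of 60 sets of values (10 genes in 6 groups), 2 held a mouse far from the others of its group by Dixon's test, which chance alone does in about 1 set in 20. Ly96 was 1.62 CPM in P15 male 1, where the other 5 males had 6.34 to 8.84 CPM, and this library also stood apart in its marker levels. Cd14 was 163 CPM in P6 female 3, where the other 3 females had 128 to 134 CPM.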

How the results depend on the processing

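Each of the 30 changes between ages (10 genes, 3 comparisons) kept its direction and its side of the threshold with all 35 mice, DESeq2, limma-voom, DESeq2 size factors and only the 2 ages compared. Without P6 males 1, 5 and 6 each kept its side of the threshold, and Ticam1, past it in neither, turned to 0.172 from P6 to P15 and 0.160 from P6 to 8 weeks. With 1 mouse left out, 3 changes from P15 to 8 weeks that did not pass the test took either sign, those of Irak1 (-0.018 to 0.083), Ticam1 (-0.076 to 0.024) and Tirap (-0.052 to 0.046). With total-count scaling or at least 10 counts in every mouse, 2 genes fell from P6 to 8 weeks in place of 1, as they did without P6 male 3 or male 4 (1 to 2 over the 34 mice left out in turn). With either of these settings or no sex term, 3 genes fell from P6 to P15 in place of 2, Irak1 being the third. Without a filter, the step of Ly96 from P15 to 8 weeks had an FDR of 0.0503. The count beyond 2-fold from P6 to 8 weeks was 0 with total-count scaling, DESeq2, no sex term or either covariate, 2 without P6 males 1, 5 and 6, and 1 to 2 with 1 mouse left out, where Ly96 joined Irak2 without P15 male 1 or 8-week male 4.

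The neural covariate gave 2 rises and 4 falls from P6 to P15, 1 rise and 5 falls from P15 to 8 weeks (0 beyond 2-fold) and 1 rise and 4 falls from P6 to 8 weeks. Its 5 falls from P15 to 8 weeks were those of Irak1, Tirap, Myd88, Irak4 and Ticam1. The microglial covariate gave 0 rises and 6 falls from P6 to P15, 4 rises and 0 falls from P15 to 8 weeks (Irak2, Irak3, Traf6 and Cd14) and 0 rises and 5 falls from P6 to 8 weeks. With the neural covariate the log2 fold change turned for Myd88 (-0.014 from P6 to P15, -0.39 from P15 to 8 weeks, -0.41 from P6 to 8 weeks), Irak4 (-0.083, -0.42 and -0.51), and, from P15 to 8 weeks, Irak1 (-0.39), Traf6 (-0.074), Tirap (-0.42) and Ly96 (-0.011). With the microglial covariate it turned from P6 to P15 for Myd88 (-0.64), Irak4 (-0.90), Tirap (-0.10), Cd14 (-0.39) and Ly96 (-0.92), and from P6 to 8 weeks for Myd88 (-0.58), Irak4 (-0.86), Tirap (-0.20) and Ly96 (-0.64). From P15 to 8 weeks it turned for Irak1 (-0.070) and Tirap (-0.104), neither past the test. The cause was not tested.

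Replicate numbers did not pair the mice: of 80 same-numbered pairs, 27 had deviations correlated over 0.1 (lowest -0.536), and 2 of 34 mice correlated best with their own number. With the replicate block 7 genes rose and 1 fell from P6 to 8 weeks, 6 rose and 2 fell from P6 to P15, and 5 rose from P15 to 8 weeks. The block changed no call. Ly96 and Irak3 rest on 30 to 428 counts per mouse, which limits their precision.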
